A study of Mus musculus with 6 samples.

Results

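Apoe and Pltp, the genes of apolipoprotein E and phospholipid transfer protein, are described here with 7 other genes of lipoprotein handling, Abca1, Abcg1, Lrp1, Lrp8, Vldlr, Scarb1 and Cd36, in endothelial cells (ECs) of the spinal cord. The 9 genes were taken by symbol from the 56748 genes of the deposited count table, no symbol was repeated, and all 9 were among the 13107 genes with enough counts to be tested. Apoe and Pltp were selected on their fold changes between these same libraries, in which both had been lower in TDP-43iΔEC mice, and the other 7 were added by known function. For that reason the comparison between genotypes is given for these 9 genes as a description, without p values or calls, and it supports nothing beyond itself.

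Libraries came from 3 control mice with floxed Tardbp and no Cre, and from 3 TDP-43iΔEC mice of the genotype Cdh5(PAC)-CreERT2;Tardbp flox, all on a C57BL/6 background. Tardbp encodes the RNA-binding protein TDP-43, its exon 3 is flanked by loxP sites, and Cre was driven by the Cdh5 promoter, which is active in ECs. Every mouse, with or without Cre, received tamoxifen at 1 mg/mL on each of 3 days from P5 to P7, spinal cords were taken at P16, and 1 library was made per mouse from cells sorted with an antibody to CD31. Antibodies to CD45, a leukocyte marker, and to TER-119, an erythroid marker, are listed with it for the sort, and a gate against them would remove microglia, macrophages and red cells. Mice of both sexes were used.

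Lipoproteins carry cholesterol and phospholipids between cells, and in the CNS apolipoprotein E, made mostly by astrocytes, is their main protein. Phospholipid transfer protein remodels these particles, the ABC transporters load them with lipid from cells, and receptors of the LDL receptor family and of the scavenger receptor class B take them or their lipids up. Pltp is known as a gene of blood-CNS barrier ECs, and Apoe, Pltp, Abca1 and Abcg1 are known targets of the liver X receptors (LXRs), the nuclear receptors that sense oxysterols.

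The libraries of control mice 1 to 3 held 44041329, 45329494 and 47270654 counts. Those of TDP-43iΔEC mice 1 to 3 held 45010088, 28228980 and 25704871 counts, so mice 2 and 3 of this group had the shallowest libraries. Over all libraries 3 counts corresponded to 0.0635 to 0.117 CPM (counts scaled to a common library size). Counts given below without normalization are not corrected for depth, and a 0 in TDP-43iΔEC mouse 2 or 3 is a 0 at lower depth. Normalized Tardbp counts were 1972, 2279 and 2070 in control mice 1 to 3 and 980.2, 599.6 and 432.5 in TDP-43iΔEC mice 1 to 3, so the groups did not overlap. These counts cover the whole gene, and a transcript that lacks exon 3 still adds to them. The 8 EC markers, among them Pecam1, Cldn5 and Cdh5, were counted in every library and summed to between 9890 and 13827 CPM. Control mouse 2 and TDP-43iΔEC mouse 1 stood apart from the other libraries, with mean correlations of 0.65 and 0.68 with the other libraries across genes against 0.70 to 0.76 for the remaining 4.

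The sequences of Apoe and Pltp are shown because these genes had the highest levels of the 9 and the lowest ratios of TDP-43iΔEC to control with small errors. In GRCm39, Apoe spans chr7:19430034-19434947 and Pltp chr2:164677702-164701743, both on the minus strand. Their promoters as given by RefSeq on GRCm38.p6 run 5′ to 3′ on the minus strand and hold 250 bases before and 50 after the annotated start. Each was found at 1 place on its chromosome of GRCm39, Apoe at chr7:19433064-19433363 and Pltp at chr2:164699579-164699878. Capitals mark matches to any of 6 short motifs searched on both strands.
Apoe promoter: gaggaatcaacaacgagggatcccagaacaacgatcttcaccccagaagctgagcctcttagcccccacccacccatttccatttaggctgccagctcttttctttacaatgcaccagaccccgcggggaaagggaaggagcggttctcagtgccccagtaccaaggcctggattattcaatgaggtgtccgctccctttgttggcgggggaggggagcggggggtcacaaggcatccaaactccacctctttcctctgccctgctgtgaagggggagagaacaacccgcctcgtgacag
Pltp promoter: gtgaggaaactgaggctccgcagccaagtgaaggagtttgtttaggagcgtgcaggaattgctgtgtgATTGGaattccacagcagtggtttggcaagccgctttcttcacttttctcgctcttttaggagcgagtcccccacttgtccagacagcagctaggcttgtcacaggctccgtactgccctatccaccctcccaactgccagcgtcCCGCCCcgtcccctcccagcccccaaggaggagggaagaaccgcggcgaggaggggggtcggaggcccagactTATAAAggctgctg

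The motifs, none of which is contained in another, are given with the share of 27025 RefSeq promoters of the same length that held them on either strand. They were the TATA box, spelled TATAAA and held by 14.2%, the GC box, spelled GGGCGG and held by 35.9%, and the pentamer CCAAT, held by 38%. The others were the E-box, spelled CACGTG and held by 7.24%, the nuclear receptor half-site, spelled AGGTCA and held by 16%, and the TCF/LEF motif, spelled ATCAAAG and held by 3.76%. The Apoe window held none of the 6. Only the most upstream RefSeq start of each gene was searched, and Apoe, Lrp8 and Vldlr have 3, 3 and 2 such starts. The Pltp window held the TATA box within the 50 bases after the annotated start, and the GC box and the pentamer before the start, both read on the opposite strand. Promoters were matched for 7 of the 9 genes, without Abcg1 and Scarb1. Among the others, Abca1 held the TATA box, GC box and E-box, Cd36 held the GC box, the pentamer and the half-site, Lrp1 held the GC box, and Lrp8 and Vldlr held none of the 6. These matches describe letters in the windows and are not shown to be sites.

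TDP-43 is known to bind runs of the dinucleotide UG in RNA, which appear as TG in the sense strand of a gene. Runs of at least 6 TG units were therefore counted over each gene from start to end. Apoe had 0 runs in its 4914 bp, whereas Pltp had 5 in 24042 bp, all in introns, the longest of 21 units. Capitals mark these runs in the minus-strand sequences of GRCm39, each with 20 bases on either side.
Pltp TG run at chr2:164683592-164683643: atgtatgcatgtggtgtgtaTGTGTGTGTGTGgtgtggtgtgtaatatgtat
Pltp TG run at chr2:164691502-164691563: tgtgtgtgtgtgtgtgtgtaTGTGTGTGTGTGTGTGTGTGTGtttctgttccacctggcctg
Pltp TG run at chr2:164691526-164691595: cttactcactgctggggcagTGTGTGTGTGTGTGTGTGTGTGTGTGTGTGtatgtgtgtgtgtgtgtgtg
Pltp TG run at chr2:164692746-164692817: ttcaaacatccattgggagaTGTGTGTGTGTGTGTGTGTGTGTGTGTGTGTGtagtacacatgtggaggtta
Pltp TG run at chr2:164697548-164697629: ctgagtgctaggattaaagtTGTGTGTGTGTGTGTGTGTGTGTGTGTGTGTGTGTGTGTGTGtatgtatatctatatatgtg

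Of 13060 tested genes with a position, 66.06% held at least 1 such run, with a median of 2 runs. Of the 2078 genes no longer than Apoe, 7.27% held a run. Abca1 had 14 runs, Lrp8 14, Cd36 12, Lrp1 11, Scarb1 9, Abcg1 4 and Vldlr 1. Apoe, with no run, and Pltp, with 5, were both lower in TDP-43iΔEC mice. Whether such runs bear on these levels was not tested.

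Levels were first compared between genes in control mice, as normalized counts per kilobase of exonic sequence. Pltp was highest, with 29296 ± 4170 normalized counts per kilobase (SD, n = 3), rank 35 of 13060 tested genes. Apoe followed with 10322 ± 700.2, rank 114. Each of them stood clear of the next gene in the order in all 3 mice.

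Scarb1 (1185 ± 356.3), Lrp8 (927.4 ± 155.1), Abca1 (785.0 ± 103.5) and Abcg1 (689.7 ± 152.3) came next in the same unit, and each gene overlapped its neighbor in this order. All 4 lay above Cd36 (23.4 ± 36.0), Lrp1 (6.21 ± 8.46) and Vldlr (2.61 ± 2.26), which overlapped each other and had libraries at 0. Reads of Pltp and Apoe were thus abundant in the sorted cells, those of Scarb1, Lrp8 and the exporters intermediate, and those of Lrp1, Vldlr and Cd36 sparse.

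In TDP-43iΔEC mice the first 3 places were unchanged, with 13574 ± 1906 normalized counts per kilobase for Pltp, 2278 ± 698.2 for Apoe and 858.0 ± 276.1 for Scarb1. Abcg1 (618.8 ± 109.6) moved ahead of Lrp8 (578.5 ± 116.5) and Abca1 (533.0 ± 90.8), but these 3 genes overlapped in their libraries. Vldlr was last in both groups.

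**Figure D1:**
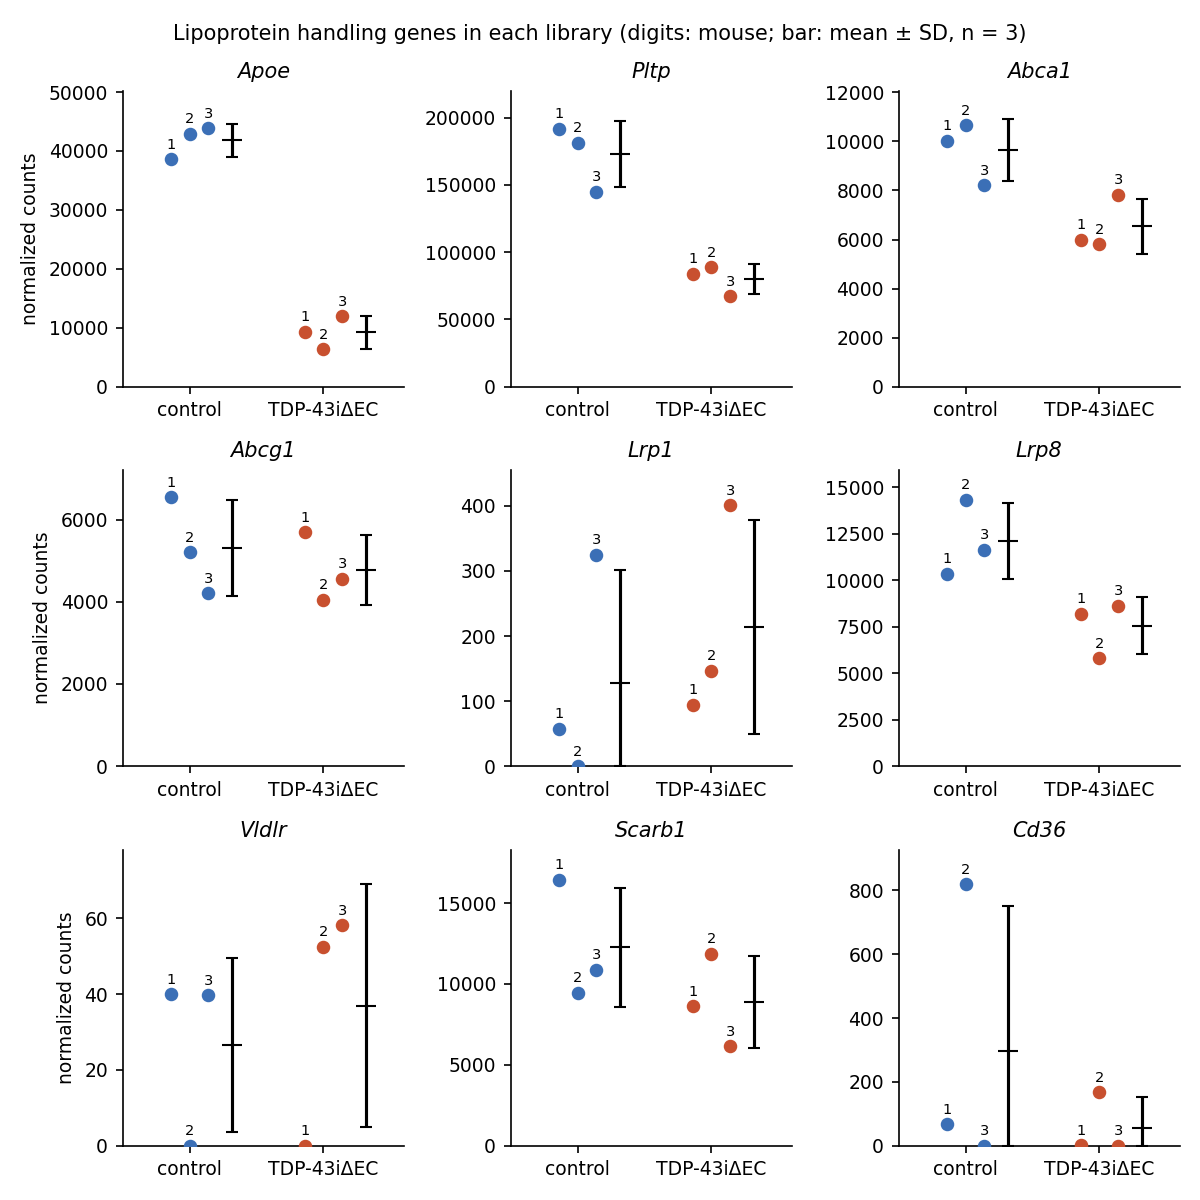
Normalized counts (y axis, from 0) of each of the 9 genes in the 3 control mice (blue) and the 3 TDP-43iΔEC mice (red), with the digit of the mouse beside each point and the mean ± SD as a black bar, which is drawn down to 0 where the SD exceeds the mean. Apoe, Pltp, Abca1 and Lrp8 have all TDP-43iΔEC points below all control points, and Lrp1, Vldlr and Cd36 have libraries at 0.

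Apolipoprotein E is a ligand by which lipoproteins bind receptors of the LDL receptor family. Normalized Apoe counts were 38556, 42937 and 43861 in the control mice 1 to 3 and 9327, 6341 and 11990.1 in TDP-43iΔEC mice 1 to 3. All TDP-43iΔEC libraries were far below all control libraries, as the plot of normalized counts shows. The mean in TDP-43iΔEC mice was 22.1% of the control mean. The log2 fold change, TDP-43iΔEC over control, was -2.27 (SE 0.20, 95% interval -2.73 to -1.81), and with each library left out in turn it lay between -2.43 and -2.05.

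Phospholipid transfer protein moves phospholipids between lipoproteins and enlarges HDL particles. Normalized Pltp counts were 191842, 181434 and 145007 in control mice and 84045, 88740.4 and 67352 in TDP-43iΔEC mice. The groups did not overlap, and the TDP-43iΔEC mean was 46.3% of the control mean. The log2 fold change was -1.13 (SE 0.14, 95% interval -1.44 to -0.82). It lay between -1.24 and -1.02 with each library left out.

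Of the ABC transporters, Abca1, which passes cholesterol and phospholipid to lipid-poor apolipoproteins, had 10033, 10663 and 8216 normalized counts in controls and 5992, 5812 and 7827 in TDP-43iΔEC mice. The TDP-43iΔEC libraries were lower without overlap, whereas in CPM, which corrects for library size alone, the groups overlapped. The log2 fold change of Abca1 was -0.62 (SE 0.20, 95% interval -1.07 to -0.17).

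Abcg1, which exports cholesterol to mature HDL, had 6544, 5201 and 4205 normalized counts in controls and 5700.1, 4051 and 4559 in TDP-43iΔEC mice. The groups overlapped, and the log2 fold change was -0.15 (SE 0.25, 95% interval -0.72 to 0.41).

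Of the 3 members of the LDL receptor family, Lrp8, also called ApoER2, a receptor for reelin and apolipoprotein E, had by far the most counts. Its normalized counts were 10348, 14315 and 11639 in control mice and 8204, 5811 and 8629 in TDP-43iΔEC mice. All TDP-43iΔEC libraries were below all control libraries. The log2 fold change was -0.72 (SE 0.21, 95% interval -1.20 to -0.24).

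Lrp1, a large endocytic receptor for apolipoprotein E and many other ligands, had 69, 0 and 400 counts in control mice and 125, 123 and 283 counts in TDP-43iΔEC mice. Vldlr, the VLDL receptor, had 48, 0 and 49 counts in control mice and 0, 44 and 41 counts in TDP-43iΔEC mice. Both genes overlapped between the groups. Their fitted fold changes depend on the small count added to each 0 and are no bound, and the fitted value of Lrp1 ranged from 0.06 to 4.88 on the log2 scale with single libraries left out.

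Scarb1 encodes SR-BI, the HDL receptor that also carries LDL across ECs. It had 16431, 9451 and 10884 normalized counts in controls and 8609, 11858 and 6163 in TDP-43iΔEC mice. The groups overlapped, with a log2 fold change of -0.50 (SE 0.28, 95% interval -1.14 to 0.15).

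Cd36, the scavenger receptor that takes up oxidized LDL and fatty acids, had 82, 921 and 0 counts in control mice and 2, 141 and 0 counts in TDP-43iΔEC mice. Mouse 2 of each group held most of its counts, and mouse 3 of each group had none. The control mean rested on control mouse 2, and without that mouse the fitted log2 fold change was 0.13 instead of -2.25.

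**Figure D2:**
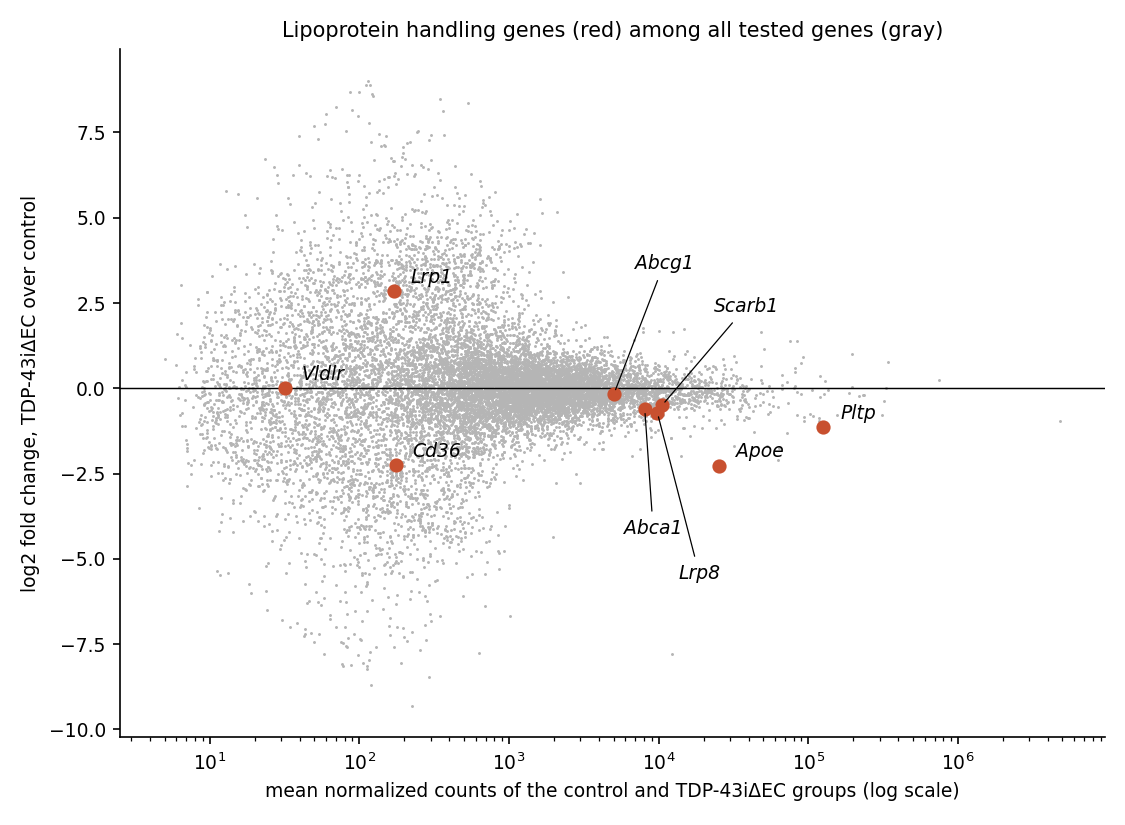
Log2 fold change of TDP-43iΔEC over control (y axis) against the average of the control and TDP-43iΔEC mean normalized counts (x axis, log scale) for the 13107 tested genes (gray) and the 9 lipoprotein handling genes (red). Apoe and Pltp lie at the lower right, below most genes of similar level, and the values of Lrp1, Vldlr and Cd36 come from the low counts where fold changes scatter widely.

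The median log2 fold change of the 9 genes was -0.62 against -0.02 over all 13107 tested genes, of which 6646 had a negative value. The 6 genes other than Lrp1, Vldlr and Cd36 had negative values, and for these 3 the low counts set no direction. Groups without overlap, lower in TDP-43iΔEC mice, were found for 4 of the 9 genes against 7.11% of all tested genes. Since the genes were chosen with this contrast in view, nothing is read from these counts.

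The libraries that stood apart changed the values of Apoe, Pltp, Abca1 and Lrp8 little. Without control mouse 2 the log2 fold changes were -2.27 for Apoe, -1.12 for Pltp, -0.56 for Abca1 and -0.62 for Lrp8. Without TDP-43iΔEC mouse 1 they were -2.32, -1.18, -0.56 and -0.82 in the same order. Scarb1 went from -0.50 with all libraries to -0.69 without control mouse 2 and -0.50 without TDP-43iΔEC mouse 1. Abcg1 went from -0.15 to -0.19 and -0.33 in the same order.

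The other genes of the pathway were read from 7 lists of 116 genes, written by known function. Of these, 28 had no count in any library and 69 had enough counts to be tested. With limma and Benjamini-Hochberg adjustment 0 of the 69 were past the threshold of an adjusted p of 0.05, against 0.107% of all tested genes in the lower and 0.137% in either direction, while 11 had an unadjusted p under 0.05, 7 lower and 4 higher in TDP-43iΔEC mice, against 9.27% of all tested genes in either direction. With edgeR's quasi-likelihood test 0 were past the threshold and 8 had an unadjusted p under 0.05, against 0 and 848 of all 13107 tested genes. With DESeq2's Wald test 4 of the 69 were past the threshold, against 247 of all 13107 tested genes. These 4 were Apod, Scd1 and Mfsd2a, which were lower, and Gpihbp1, which was higher. The median log2 fold change of the 69 genes was -0.25.

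Among 14 further apolipoprotein genes 8 had no count in any library, and 3 were tested. The apolipoprotein D gene Apod, whose product is a lipocalin, was by far the best counted. Its normalized counts were 50387, 41928 and 59582 in control mice and 25162, 28325 and 32177 in TDP-43iΔEC mice, so that the groups did not overlap. The log2 fold change was -0.88 (SE 0.17, adjusted p = 0.188, limma with the Benjamini-Hochberg method). Over the alternatives that value ran from 0.00107 with DESeq2 to 0.573 with limma without TDP-43iΔEC mouse 1. Clu (clusterin, or apolipoprotein J) had libraries at 0 in both groups and 166.3 ± 203.0 and 91.4 ± 158.3 normalized counts.

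Of 17 lipases, lipid transfer proteins and their partners, 12 were tested. Gpihbp1, which anchors lipoprotein lipase on the luminal face of capillary ECs, had 429.9, 516.5 and 332.0 normalized counts in controls and 1881, 1096 and 1688 in TDP-43iΔEC mice. All TDP-43iΔEC libraries were above all control libraries, with a log2 fold change of 1.86 (SE 0.48, adjusted p = 0.296, limma with the Benjamini-Hochberg method). Lbp, which encodes the lipopolysaccharide-binding protein of the same protein family as Pltp, had 202.9, 0 and 114.5 normalized counts in controls and 702.4, 823.8 and 926.0 in TDP-43iΔEC mice. These groups did not overlap either (adjusted p = 0.481, limma with the Benjamini-Hochberg method). The best counted genes of the list were Lipa, the lysosomal acid lipase, and Angptl4, an inhibitor of lipoprotein lipase. They had 16106 ± 1242 and 7334 ± 1326 normalized counts in controls and 11029 ± 2133 and 5864 ± 1201 in TDP-43iΔEC mice. For Lipa the groups did not overlap in normalized counts but overlapped in CPM, and for Angptl4 they overlapped in both. The log2 fold change of Lipa was -0.62 (SE 0.18, adjusted p = 0.360, limma with the Benjamini-Hochberg method).

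In the LDL receptor family and its partners, 11 of 18 genes were tested, and 0 had an unadjusted limma p under 0.05. Lrpap1, the chaperone of these receptors, had 6516 ± 1116 normalized counts in control and 5237 ± 260.3 in TDP-43iΔEC mice, and the endocytic adaptor Dab2 had 6388 ± 453.5 and 6313 ± 1865. Likewise 0 of 7 tested ABC lipid transporters and 0 of 7 tested scavenger receptors had an unadjusted p under 0.05 in limma. The best counted of these were Abca3 (2126 ± 789.6 and 1746 ± 480.9 normalized counts), Abca2 (356.9 ± 393.3 and 502.6 ± 187.6), Stab1 (10373 ± 955.9 and 8934 ± 775.5) and Scarf1 (4904 ± 1697 and 4621 ± 913.4), with the control value first.

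Of 17 LXR and RXR genes and LXR targets, 15 were tested. Smpdl3a, an LXR target that encodes a phosphodiesterase related to acid sphingomyelinase, had 9332, 15442 and 12199.6 normalized counts in controls and 4836, 8325 and 3612 in TDP-43iΔEC mice. The groups did not overlap, and the log2 fold change was -1.23 (SE 0.30, adjusted p = 0.271, limma with the Benjamini-Hochberg method). The stearoyl-CoA desaturase gene Scd1 had 74.8, 333.4 and 75.5 normalized counts in controls and 0.757, 4.77 and 0 in TDP-43iΔEC mice. The groups did not overlap, but the TDP-43iΔEC values lay near the floor (adjusted p = 0.396, limma with the Benjamini-Hochberg method). Over the alternatives that value ran from 0.0262 with DESeq2 to 0.732 with limma without TDP-43iΔEC mouse 1. Scd2, the better counted relative of Scd1, had 6659 ± 1143 normalized counts in control and 5886 ± 997.4 in TDP-43iΔEC mice, and its groups overlapped.

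Of 20 fatty acid uptake genes, 14 were tested. Mfsd2a, the carrier of lysophosphatidylcholine with docosahexaenoic acid at the blood-CNS barrier, had 62693, 51393 and 41605 normalized counts in controls and 31528, 29175 and 25383 in TDP-43iΔEC mice. The groups did not overlap, with a log2 fold change of -0.86 (SE 0.18, adjusted p = 0.196, limma with the Benjamini-Hochberg method). Over the alternatives the adjusted p of Mfsd2a ran from 0.00121 with DESeq2 to 0.517 with limma without TDP-43iΔEC mouse 1.

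Acsl3, which activates long-chain fatty acids, had 2431, 2722 and 2696 normalized counts in controls and 1661, 1462 and 1298 in TDP-43iΔEC mice (log2 fold change -0.84, SE 0.27, adjusted p = 0.422, limma with the Benjamini-Hochberg method). Slc27a4, a fatty acid transport protein, had 645.2, 876.5 and 750.0 normalized counts in controls and 192.2, 256.3 and 0 in TDP-43iΔEC mice. The fatty acid-binding protein gene Fabp4 had 0, 0 and 11.4 normalized counts in controls and 101.4, 20.3 and 72.3 in TDP-43iΔEC mice. Neither reached the threshold, with adjusted p values of 0.522 and 0.517 in limma with Benjamini-Hochberg adjustment, and in both the groups did not overlap. Acsl5, one of the 2 best counted genes of the list with Mfsd2a, had 2895 ± 863.4 and 3777 ± 1362 normalized counts.

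**Figure D3:**
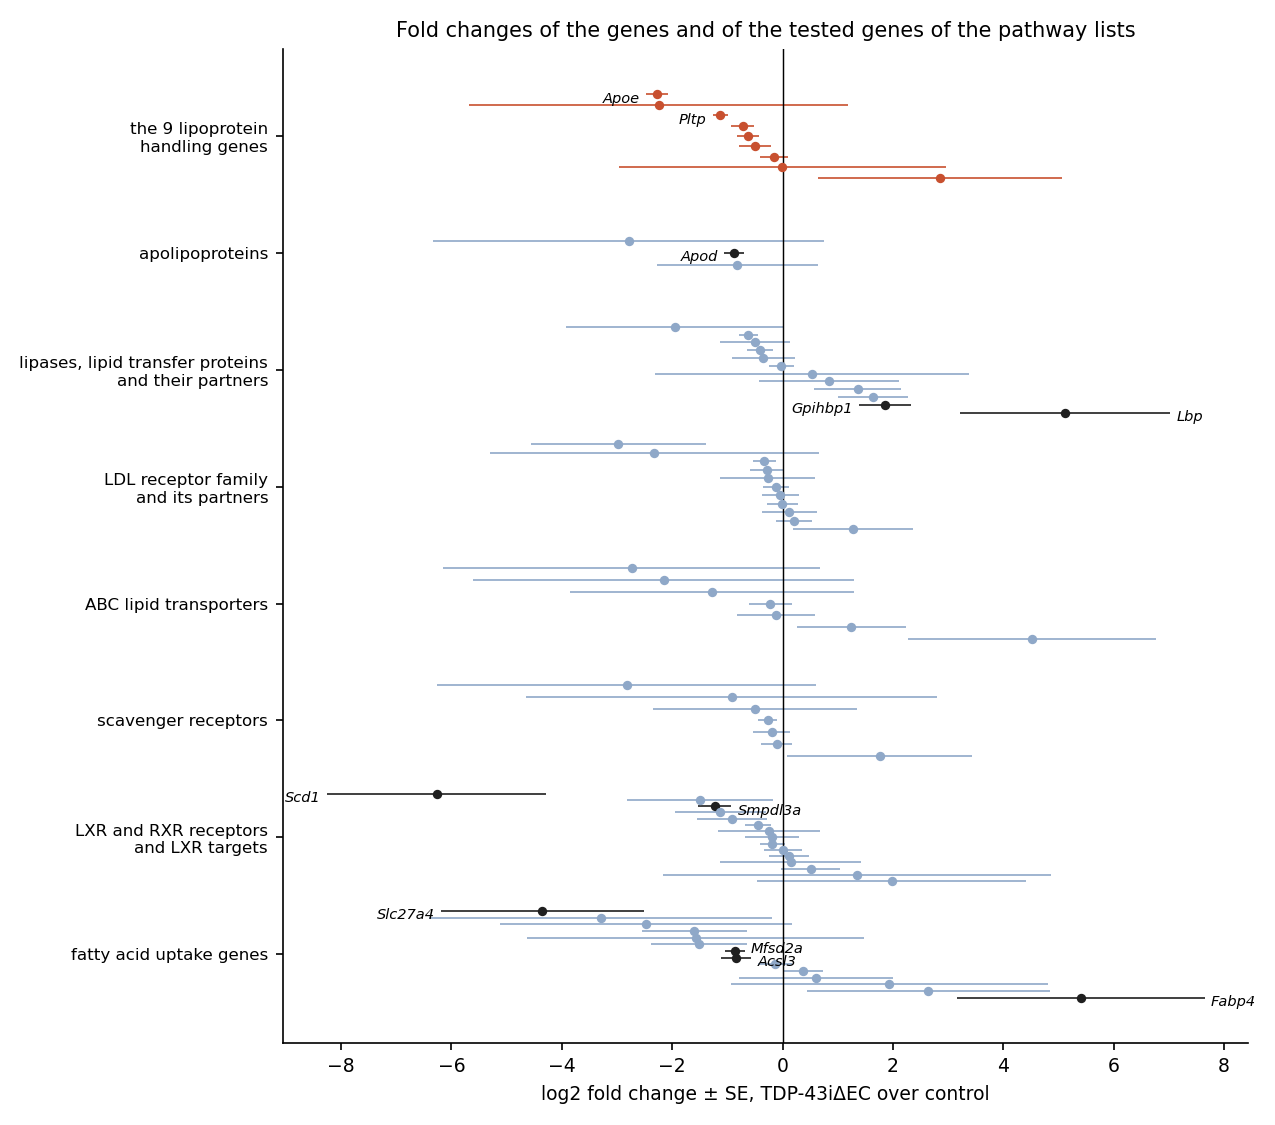
Log2 fold changes with SE (x axis, TDP-43iΔEC over control) of the 9 lipoprotein handling genes (red) and of the 69 tested genes of the 7 pathway lists (y axis), with genes in black whose groups did not overlap in CPM and whose unadjusted limma p was under 0.05. Apoe and Pltp have short error bars left of 0, and most list genes with short bars lie within 1 unit of 0.

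The genes beside Apoe and Pltp on their chromosomes were then compared, within 50 kb of either gene. Tomm40, 291 bp from Apoe, encodes a pore subunit of the mitochondrial outer membrane and had 1025 ± 192.7 normalized counts in control and 969.4 ± 161.7 in TDP-43iΔEC mice (log2 fold change -0.08, SE 0.37, adjusted p = 0.962, limma with the Benjamini-Hochberg method). Clptm1 and Nectin2 had log2 fold changes of 0.36 (SE 0.29) and 0.86 (SE 0.71), and their groups overlapped. The apolipoprotein genes of the same cluster were hardly counted, with 8 counts for Apoc1 over the 6 libraries and 0 for Apoc2 and Apoc4. For each of the 3 tested neighbors of Apoe the groups of mice overlapped.

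Beside Pltp, the gene with the largest count was Ctsa, which encodes the lysosomal protease cathepsin A, lies on the opposite strand and shares 21.2% of the exonic sequence of Pltp. The library protocol does not mark strand, and reads from the shared stretch cannot be assigned by strand. Ctsa had 10390.4 ± 1656 normalized counts in control and 7754 ± 429.8 in TDP-43iΔEC mice without overlap, with a log2 fold change of -0.46 (SE 0.18, adjusted p = 0.504, limma with the Benjamini-Hochberg method). The other 6 tested neighbors of Pltp, Neurl2, Zswim1, Pcif1, Zfp335, Acot8 and Snx21, overlapped between the groups, with log2 fold changes from -0.18 to 1.62. Apoe shares 12.9% of its exonic sequence with the opposite-strand gene Gm71725 of GENCODE M39. That gene was not among the deposited genes beside Apoe, so counts were not divided with it. Reads from that stretch cannot be assigned by strand either.

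**Figure D4:**
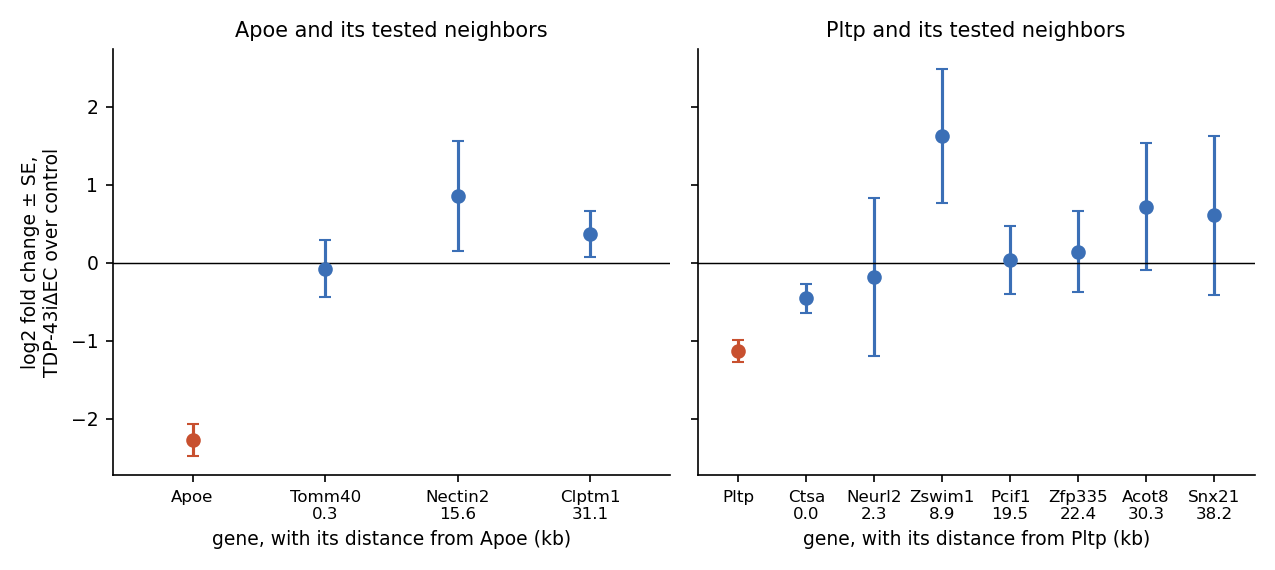
Log2 fold change with SE (y axis, TDP-43iΔEC over control) of Apoe and Pltp (red) and of their tested neighbors within 50 kb (blue), ordered by distance in kilobases on the x axis. Apoe at -2.27 and Pltp at -1.13 lie below every tested neighbor, of which Ctsa at -0.46 is the lowest.

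The genes whose log2 CPM followed Apoe most closely over the 6 libraries, among 13107 tested genes, were Bnip3l (Pearson r = 0.997), Zc3h7b (0.992), Rasgrp2 (0.990), Gstm1 (0.990) and Atp2c1 (0.989). Bnip3l is a mitophagy receptor that maturing red cells need, and Gstm1 is a glutathione S-transferase. For Pltp they were Gm5112 (0.992), Car4 (0.991), Rsph3b (0.987), Dpp4 (0.987) and Bsg (0.986). Car4 and Bsg encode carbonic anhydrase 4 and basigin, both known from blood-CNS barrier ECs, and Dpp4 encodes a surface peptidase. All 10 were lower in TDP-43iΔEC mice, by log2 fold changes from -0.60 for Bnip3l to -2.37 for Rsph3b and -5.11 for Gm5112. Gm5112 had only 48.4 ± 38.7 normalized counts in control and 0.65 ± 0.60 in TDP-43iΔEC mice. Its fitted value depends on counts near the floor and is no bound.

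Among the 9 genes, the same measure was 0.93 between Apoe and Lrp8, 0.91 between Apoe and Abca1, 0.88 between Apoe and Pltp, 0.81 between Pltp and Abca1 and 0.39 between Apoe and Abcg1. These correlations describe 6 libraries that fall into 2 genotypes, and the difference between genotypes is the pattern that high values share.

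Because Apoe is strongly expressed by astrocytes, markers of other cells were set beside it. The 8 astrocyte markers summed to 259.2, 223.4 and 247.5 CPM in control mice and 139.0, 195.4 and 179.9 CPM in TDP-43iΔEC mice (2-sided exact permutation test, p = 0.1, the smallest that 3 mice against 3 can give). Gja1, which ECs also express, made up most of this sum, with 235.6, 190.6 and 220.7 CPM in control mice and 110.9, 188.0 and 171.2 CPM in TDP-43iΔEC mice. The other 7 markers together had 23.6, 32.8 and 26.8 CPM in control mice and 28.0, 7.44 and 8.75 CPM in TDP-43iΔEC mice. Aqp4 had no count in control mouse 2 or in any TDP-43iΔEC mouse.

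Apoe itself had 1053, 1066 and 1143 CPM in control mice and 273.8, 188.4 and 328.9 CPM in TDP-43iΔEC mice. In TDP-43iΔEC mouse 1 the sum of the 7 other astrocyte markers lay within the range of the control mice. Most of that sum was Gfap, with 1134 counts in this mouse and 292, 939 and 2 in control mice 1 to 3. Slc1a2, with 193, 281 and 482 counts in control mice, had 0 in this mouse, as had Aqp4, Aldh1l1 and Agt. The Apoe level of this mouse was far below those of the control mice. The part of astrocyte RNA in the Apoe difference was not tested, and in bulk samples fewer cells of a type and less RNA per cell cannot be told apart.

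**Figure D5:**
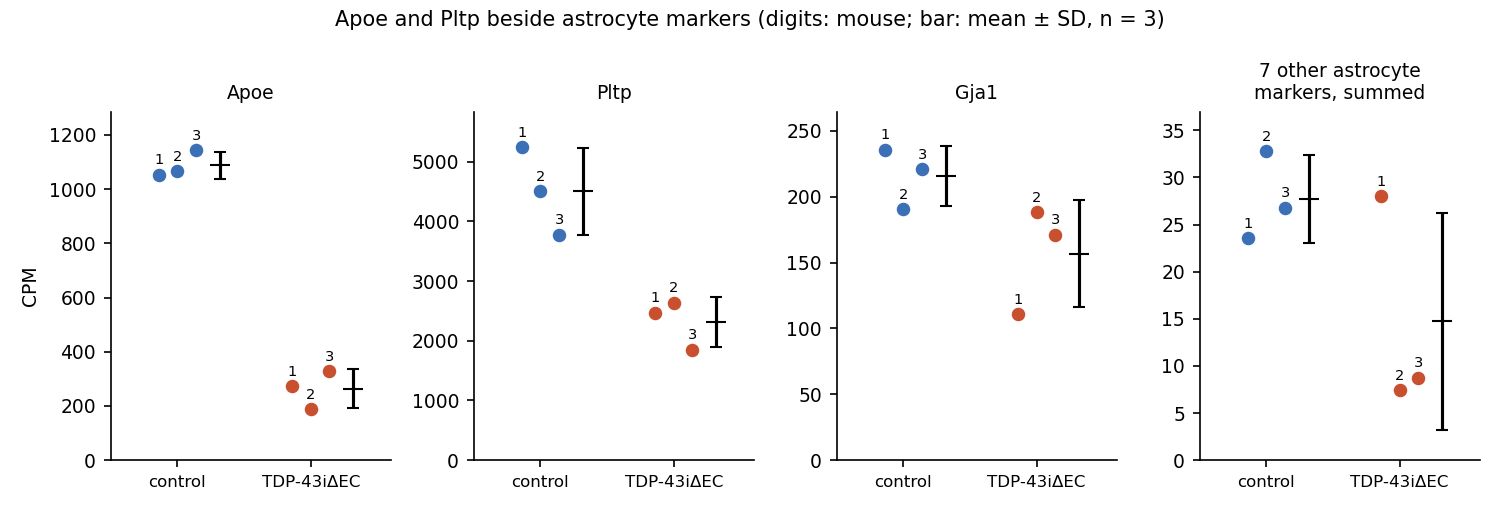
CPM (y axes, each from 0) of Apoe, Pltp, the astrocyte marker Gja1 and the sum of the 7 other astrocyte markers in control mice (blue) and TDP-43iΔEC mice (red), with the digit of the mouse and the mean ± SD. TDP-43iΔEC mouse 1 has 28.0 CPM of the 7 markers, between control mice 3 and 2 and mostly from Gfap, and 273.8 CPM of Apoe.

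The 14 markers of microglia and macrophages, which are known to make apolipoprotein E as well, summed to 0 to 5.88 CPM in control mice and 3.58 to 10.6 CPM in TDP-43iΔEC mice, and Itgam, Trem2 and Adgre1 had no count in any library. Of the 5 erythroid markers, 4 were past the threshold and lower in TDP-43iΔEC mice in limma with the Benjamini-Hochberg method, and their sum was 7649, 6336 and 9759 CPM in control mice and 2197, 2379 and 2909 CPM in TDP-43iΔEC mice (2-sided exact permutation test, p = 0.1). These markers were counted in every library although TER-119 is listed among the sorting antibodies, and the part of erythroid RNA in the results was not tested. The 7 oligodendrocyte lineage markers ranged from 320.4 to 629.2 CPM in control mice and from 29.2 to 601.6 CPM in TDP-43iΔEC mice, the highest in TDP-43iΔEC mouse 1. Mural cell, fibroblast and neuron markers overlapped between the groups, at means of 661.2, 37.6 and 6.26 CPM in control mice and 688.9, 33.2 and 2.06 CPM in TDP-43iΔEC mice, and the EC markers had 11410 ± 2106 CPM in control and 11010.4 ± 1481 CPM in TDP-43iΔEC mice.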

How the data were processed

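RNA-Seq libraries of ECs sorted from P16 spinal cord were compared between 3 control and 3 TDP-43iΔEC mice, and all 6 libraries were used. The authors made the libraries with SMARTseq2, which amplifies cDNA by PCR without molecular identifiers, used STAR 2.7.8a for mapping against GRCm39, and estimated counts of GENCODE M30 genes by RSEM 1.3.0 under default options. The deposited estimated counts were whole numbers (0 values were not) and had not been scaled. Groups came from the labels. Nothing in the labels beyond the genotype and the mouse number separates the libraries. The authors' methods state that RNA input varied with what each sample yielded. They also give alternative numbers of cDNA amplification cycles, without assigning them to libraries. With 1 library per mouse, p values measure the spread between these mice and their library preparations together. Whether input or cycles differed between the groups cannot be told.

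Differential expression was fitted with limma 3.58.1 (voom, TMM factors, filterByExpr of edgeR 4.0.16) in R 4.3.3, without covariates, with Benjamini-Hochberg adjustment across the 13107 tested genes and a threshold of 0.05. For normalized counts, each library was divided by its DESeq2 1.42.0 size factor. Gene positions and exons came from GENCODE M39 (98.71% of the identifiers matched), and promoters from RefSeq. Intervals of fold changes are at the 95% level, and count floors cover counting error only. The intervals are not adjusted for the number of genes or for their choice on these data. Whether an interval holds 0 is therefore not read as a test.

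The 9 genes, the 7 pathway lists and the 8 marker lists were chosen with earlier results of these data known. From each list the text names genes past the threshold, those with an unadjusted p under 0.05 whose groups did not overlap in CPM, and the 2 best counted, and for Apoe and Pltp the 5 genes most correlated with each. Chromosomal neighbors, TG runs, promoters and the astrocyte sum without Gja1 were added after values were seen. Same-numbered mice did not deviate together (correlations -0.07, -0.13 and -0.02), so mouse numbers were used as a block only in an alternative. Alternatives are given in the closing section. Sequencing reads were not analysed here.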

Additional observations from a re-analysis of the deposited data

How the results depend on the processing

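Apoe, Pltp, Abca1, Lrp8 and Scarb1 were lower in TDP-43iΔEC mice in all 17 alternatives run, with log2 fold changes from -2.43 to -2.04, -1.24 to -0.90, -0.72 to -0.38, -0.82 to -0.48 and -0.70 to -0.26. The smallest declines of the first 4 of these came from scaling to 5 EC genes, which gave -0.90 for Pltp and -0.38 for Abca1. Abcg1 was lower in 14 of the 17 and higher in 3, and Cd36 and Vldlr were lower in 14 and 5 of the 16 in which they were tested. Lrp1 was higher in all 16. For Lrp1, Vldlr and Cd36, with libraries at 0 counts, the depth sets no direction. Scaling by library size only and to 5 EC genes moved the median log2 fold change of all genes to 0.18 and 0.23, and leaving out control mouse 2 moved it to -0.17.

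Over all genes 18 were past the threshold, 14 of them lower. The count was 0 with edgeR's quasi-likelihood test (848 at an unadjusted p under 0.05), 247 with DESeq2 (142 lower), 10 with library size only (6 lower), 40 with quantile normalization (23 lower), 1 with scaling to 5 EC genes (0 lower), 76 without a filter on low counts (49 lower), 39 with at least 10 counts in every library, and 31 at an adjusted p under 0.1. With each mouse left out it ranged from 0, without TDP-43iΔEC mouse 1 (960 at an unadjusted p under 0.05), to 13, without control mouse 3. With the mouse number as a replicate block it was 22 (19 lower). Pathway list genes past the threshold numbered 0 in limma, 4 with DESeq2 and 1 (Mfsd2a, adjusted p = 0.0387, limma with the Benjamini-Hochberg method) with the replicate block, and 0 in every other alternative. The astrocyte marker sum differed by -72 CPM, by -98.2 CPM with TMM scaling and by -13.0 CPM without Gja1. The EC marker sum differed by -399.2 CPM, and by -1812 CPM with TMM scaling (2-sided exact permutation test, p = 0.7 and 0.3). With the longest transcript as length, normalized counts per kilobase in control mice were 46755 for Pltp, 13531 for Apoe, 3903 for Scarb1, 1493 for Lrp8, 938.1 for Abca1, 888.6 for Abcg1 and 67.7 for Cd36, in the same order. The cause of these changes was not tested.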
